A study of Mus musculus with 2 samples.

Results

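The FGF ligands, receptors and carrier protein described here are 9 genes, *Fgf3*, *Fgf8*, *Fgf9*, *Fgf13*, *Fgf15*, *Fgfr1*, *Fgfr2*, *Fgfr3* and *Fgfbp3*, taken by symbol from the 31053 genes of the count tables, and all 9 were found. They were measured by single-cell RNA sequencing (10x Genomics 3' chemistry) of mouse eyecups at E13.5, with 1 library from a control embryo and 1 from a DKO embryo. The control was a littermate of genotype Six3+/-;Six6+/-, picked because it lacked GFP. The DKO embryo, Six3F/F;Six6-/-;a-Cre, was picked by GFP+ rosettes in its retinas. *Six6* was inactivated in its germline, whereas α-Cre, which acts in the peripheral retina, deleted *Six3* in a part of the cells only. The DKO library therefore held cells with and without *Six3* deletion, each genotype was 1 embryo, and no test between the genotypes could be made. The eyecups also held lens and blood.

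FGF ligands are mostly secreted proteins that bind receptor tyrosine kinases of the FGFR family together with heparan sulfate and signal through Ras and ERK. In the developing eye, FGF signals favor neural retina over pigment epithelium, and they drive the differentiation of lens fibers. *Fgf3* and *Fgf8* encode ligands known for the onset of retinal neurogenesis, *Fgf9* a ligand of the early neural retina that sets its border with the pigment epithelium, and *Fgf15* the mouse counterpart of human FGF19, which is transcribed in retinal progenitor cells. *Fgf13* encodes an FGF-like protein that stays inside the cell and binds sodium channels and microtubules. *Fgfr1*, *Fgfr2* and *Fgfr3* encode receptors, and *Fgfbp3* encodes a secreted protein that binds FGFs and releases them from the matrix.

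*Fgf3* and *Fgf15* lie close together on chromosome 7 (GRCm38.p6, RefSeq): *Fgf3* lies at chr7:144838612-144843348 and *Fgf15* at chr7:144896532-144900953, 53.2 kb apart. Another ligand gene, *Fgf4*, lies between them at chr7:144861386-144865245. *Fgf9* lies at chr14:58070671-58112854. The genes with higher levels in DKO cells lie apart, *Fgfr2* at chr7:130162451-130266808, *Fgfr3* at chr5:33721724-33737068 and *Fgfbp3* at chr19:36917550-36919599. RefSeq windows upstream of the start were given for 6 of the 9 genes (10 windows in all). The 230 bases from 250 to 21 before each start were searched on both strands for TGATAC, the core bound by SIX-family homeodomains. The motif stood in 1 of the 10 windows, that of *Fgfr2*, and in 4.37% of all 32851 windows of this length. A match is a description of the letters, not a binding site. The windows of *Fgfr2* and *Fgfbp3*, both on the minus strand and outside annotated exons, are shown, the first because it holds the motif and the second because *Fgfbp3* had the highest ratio of DKO to control in naïve progenitor-like cells. They lie at chr7:130266829-130267058 and chr19:36919620-36919849, are written 5′ to 3′, and hold the motif, where present, in capitals.
*Fgfr2*: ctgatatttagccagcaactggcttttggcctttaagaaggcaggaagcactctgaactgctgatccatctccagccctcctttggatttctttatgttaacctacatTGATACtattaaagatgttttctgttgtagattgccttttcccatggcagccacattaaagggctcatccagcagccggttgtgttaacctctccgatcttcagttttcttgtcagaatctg
*Fgfbp3*: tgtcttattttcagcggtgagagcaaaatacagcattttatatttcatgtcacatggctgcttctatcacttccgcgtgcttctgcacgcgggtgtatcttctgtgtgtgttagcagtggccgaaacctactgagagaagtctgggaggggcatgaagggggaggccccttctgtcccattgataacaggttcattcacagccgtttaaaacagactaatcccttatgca

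After filtering, 9822 control and 12146 DKO cells remained, with medians of 7620 and 5879 UMIs (unique molecular identifiers, each marking 1 captured mRNA molecule), and 20 cell barcodes were shared by the libraries. Cells were clustered without the 9 genes, and clusters were named from marker genes, with the word like as a reminder that the names are rebuilt. Naïve progenitor-like cells (clusters 0, 1 and 9; hereafter naïve-like) numbered 3281 in the control and 3344 in the DKO library. The other main groups were neurogenic progenitor-like cells (1416 and 1571), ganglion cell-like cells (1060 and 2237) and lens-like cells (215 and 257). Cluster 2 (1028 and 1167 cells), led by the pigment genes *Pmel*, *Trpm1* and *Dct* and the ciliary margin gene *Gja1*, stayed unnamed. A level is the sum of a gene's UMIs over a group of cells per 1000000 UMIs of that group (CPM), and a ratio is the log2 of DKO over control. The 95% intervals in brackets cover counting error only and leave out variation between embryos. Since transcripts differ in length and capture, levels were not compared between genes.

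The targeted genes were checked first. In naïve-like cells, *Six6* stood at 366 CPM in the control and 45.4 CPM in the DKO library, a log2 ratio of −3.01 [−3.10 to −2.93]. *Six3* stood at 309 and 229 CPM, a log2 ratio of −0.43 [−0.48 to −0.39]. Both were lower in the naïve-like cells of the library labelled DKO, and *Six3* stayed at or above the control level in a part of these cells. Over all cells, *Six6* was lower in the DKO library (−2.56 [−2.62 to −2.51]). *Six3* was not, at 302 CPM in the control and 316 CPM in the DKO library (0.07 [0.04 to 0.09]).

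In control eyecups, the ligand genes belonged mainly to naïve-like cells. These cells made up 33.4% of the control cells but held 87.0% of the UMIs of *Fgf3*, 82.2% of those of *Fgf15*, 75.7% of those of *Fgf8*, and 65.7% of those of both *Fgf9* and *Fgf13*. The control level of *Fgf15* was 476 CPM in naïve-like cells, 184 in cluster 2, 85.7 in neurogenic progenitor-like cells and 28.5 in ganglion cell-like cells. That of *Fgf9* was 135, 95.1, 71.3 and 45.6 CPM in the same groups. The control levels of *Fgf15* and *Fgf9* thus stepped down from naïve-like to ganglion cell-like cells, with intervals that did not overlap between neighbors in this order of 4 groups. *Fgf3* stood at 20.3 CPM in naïve-like cells, 4.20 in cluster 2 and 2.18 in neurogenic progenitor-like cells. *Fgf8* was sparse everywhere, with 81 UMIs and 2.44 CPM in naïve-like control cells and at most 11 UMIs in any other group there. *Fgf13* stood at 48.7 CPM in naïve-like cells, 34.8 in cluster 2, 19.0 in neurogenic progenitor-like, 20.3 in ganglion cell-like and 29.9 in amacrine or horizontal cell-like cells.

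The receptors had another distribution. *Fgfr1* was read in retinal and lens groups alike, at 61.8 CPM in naïve-like, 71.5 in cluster 2 and 70.4 in lens-like control cells, and at 35.0 and 24.7 CPM in neurogenic progenitor-like and ganglion cell-like cells. Its highest levels, 206 and 214 CPM, came from 4 control and 31 DKO mesenchyme-like cells. Among groups of at least 50 control cells, *Fgfr2* was highest in lens-like cells, at 75.3 CPM [67.1 to 84.2], followed by cluster 2 at 25.3 CPM [22.2 to 28.7] and naïve-like cells at 5.84 CPM [5.05 to 6.73]. *Fgfr3* likewise peaked in lens-like cells, at 28.4 CPM against 2.71 in naïve-like cells. Lens-like cells were 2.19% of the control cells and held 39.0% of the UMIs of *Fgfr2* and 43.5% of those of *Fgfr3*. The carrier gene *Fgfbp3* stood at 27.7 CPM in lens-like, 19.5 in cluster 2, 17.7 in naïve-like and 5.60 in neurogenic progenitor-like control cells. In red blood-like cells, which should lack these genes and give 1 reading of free RNA, *Fgf15* stood at 3.91 CPM in the control and 5.28 in the DKO library. No other of the 9 genes passed 1.67 CPM in either. Hemoglobin UMIs count in the totals of these cells, so their levels can understate free RNA in other groups. Macrophage-like cells had more *Fgf15* (11 and 19 UMIs), at levels above those of lens-like cells and near those of ganglion cell-like cells. The part of free RNA in those groups was not tested.

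**Figure D1:**
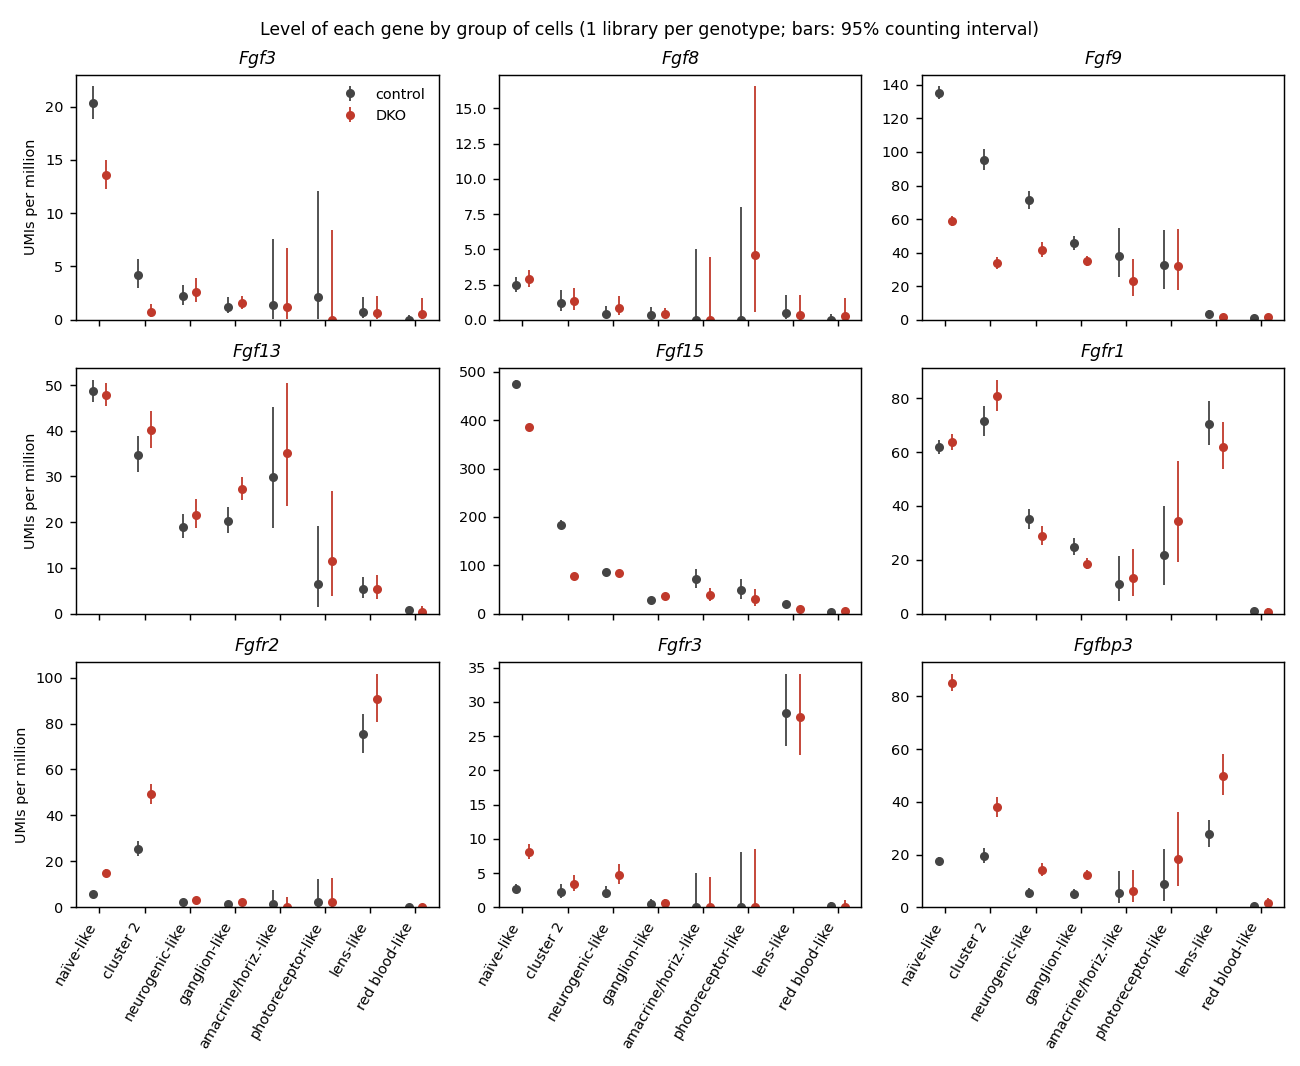
Level (CPM) of each of the 9 genes in 8 groups of cells of the control (grey) and DKO (red) library; points are the levels and bars their 95% counting intervals. The ligands *Fgf3*, *Fgf9* and *Fgf15* are highest in naïve-like control cells, *Fgfr2* and *Fgfr3* in lens-like cells, and *Fgfbp3* in naïve-like DKO cells.

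DKO naïve-like cells had less *Fgf9* and, to a smaller extent, less *Fgf3* and *Fgf15* mRNA, and more *Fgfr2*, *Fgfr3* and *Fgfbp3* mRNA, than control naïve-like cells. *Fgf9* stood at 135 CPM (4489 UMIs) in the control and 58.9 CPM (1719 UMIs) in the DKO library, a log2 ratio of −1.20 [−1.28 to −1.12]. *Fgf3* stood at 20.3 and 13.6 CPM, a log2 ratio of −0.58 [−0.77 to −0.40]. *Fgf15* stood at 476 and 386 CPM, a log2 ratio of −0.30 [−0.34 to −0.27]. The interval of *Fgf8* held 0, with 2.44 and 2.88 CPM and a log2 ratio of 0.24 [−0.22 to 0.70]. The intracellular member *Fgf13* stood at 48.7 and 47.8 CPM, and its log2 ratio of −0.03 [−0.13 to 0.08] also held 0.

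Among the receptors, *Fgfr1* stood at 61.8 CPM in control and 63.6 CPM in DKO naïve-like cells, a log2 ratio of 0.04 [−0.05 to 0.13]. *Fgfr2* stood at 5.84 and 15.1 CPM (194 and 442 UMIs), a log2 ratio of 1.37 [1.13 to 1.62]. *Fgfr3* stood at 2.71 and 8.12 CPM (90 and 237 UMIs), a log2 ratio of 1.58 [1.23 to 1.95]. *Fgfbp3* had the largest ratio of the 9 genes. It stood at 17.7 CPM (588 UMIs) in the control and 85.2 CPM (2488 UMIs) in the DKO library, a log2 ratio of 2.27 [2.14 to 2.40], or 4.81-fold. In each of clusters 0, 1 and 9, which make up the naïve-like cells, the intervals lay below 0 for *Fgf9* (log2 −1.35 to −1.01) and *Fgf15* (−0.36 to −0.24) and above 0 for *Fgfr2* (1.17 to 1.87), *Fgfr3* (1.46 to 1.78) and *Fgfbp3* (2.10 to 2.43). The interval of *Fgf3* lay below 0 in clusters 0 (−0.66) and 9 (−0.78) but held 0 in cluster 1 (−0.31 [−0.66 to 0.03]).

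Past 2-fold, among genes with at least 100 UMIs in both libraries together, were 3 of the 9 genes in the higher direction (*Fgfbp3*, *Fgfr3* and *Fgfr2*) and 1 in the lower (*Fgf9*). Over all 11622 such genes, 2.43% were higher and 0.938% lower in DKO naïve-like cells by this measure, and the median log2 ratio was 0.02. The level of the naïve marker list, summed over its 8 genes, was 4780 CPM in control and 3357 CPM in DKO naïve-like cells, and that of 6 ciliary margin markers was 374 and 573 CPM. The part of this marker difference in the ratios of the 9 genes was not tested. Where the libraries were clustered without integration, the naïve-like class held 3871 control but 1783 DKO cells. In that class *Fgf9* had a log2 ratio of −0.26, *Fgf15* (0.22) and *Fgf3* (0.49) turned direction, and 2 genes were past 2-fold.

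**Figure D2:**
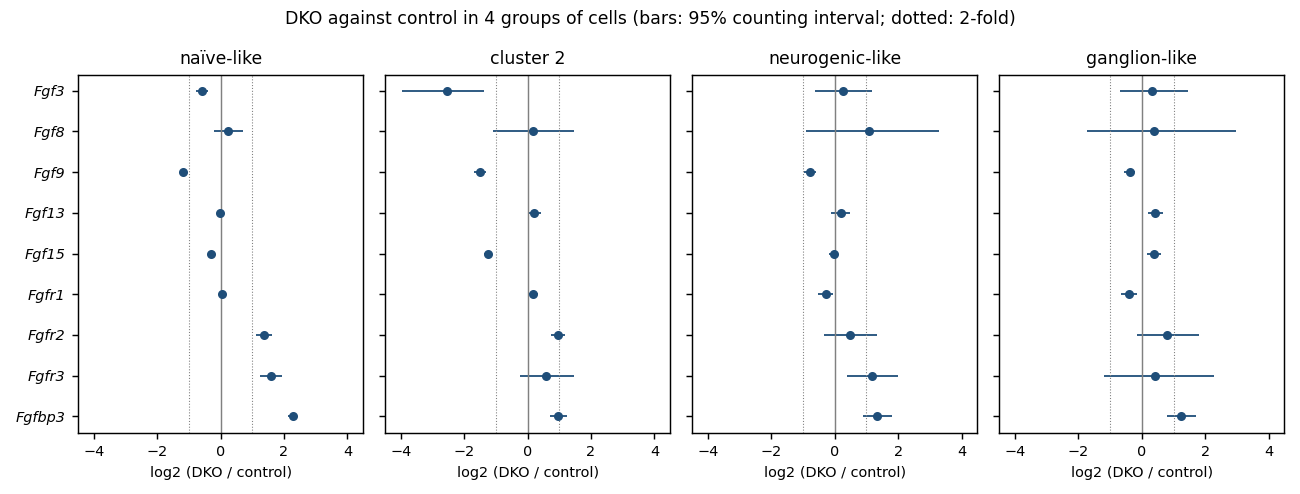
Log2 ratio of DKO to control for each of the 9 genes in naïve-like cells, cluster 2, neurogenic progenitor-like and ganglion cell-like cells; bars are 95% counting intervals and dotted lines mark 2-fold. *Fgf9* lies left of 0 and *Fgfbp3* right of 0 in all 4 groups, while *Fgfr1* lies left of 0 in neurogenic progenitor-like (−0.28) and ganglion cell-like cells (−0.41) and *Fgf13* right of 0 in ganglion cell-like cells (0.43).

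The share of naïve-like cells with at least 1 UMI of each gene was compared after thinning every cell to 2000 UMIs, since DKO cells were shallower (median 7486 against 8886 UMIs). This left out 32 control and 48 DKO cells and kept 3249 and 3296. The share for *Fgf15* was 56.4% [54.6 to 58.1] in the control and 43.5% [41.8 to 45.3] in the DKO library (89.4% and 73.4% before thinning). *Fgf9* was found in 24.3% [22.9 to 25.9] and 11.6% [10.5 to 12.7] (66.9% and 31.0% before thinning), and *Fgfbp3* in 3.57% [2.96 to 4.27] and 14.0% [12.8 to 15.2] (15.4% and 35.8%). For *Fgf3* the shares were 4.49% and 2.73% (16.0% and 8.97% before thinning), and for *Fgfr2* 0.862% and 3.00% (5.06% and 10.9%). *Fgfr1* was found in 10.7% [9.67 to 11.8] and 11.8% [10.8 to 13.0], with overlapping intervals (41.2% and 38.5% before thinning). In thinned red blood-like cells (median 8453 and 6324 UMIs before thinning), the share for *Fgf15* was 0.660% in the control and 1.12% in the DKO library.

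The number of *Fgf15* UMIs per cell was also counted. After thinning, 43.6% of control and 56.5% of DKO naïve-like cells held no *Fgf15* UMI, 29.1% and 23.7% held 1, 15.8% and 10.3% held 2, and 11.5% and 9.53% held 3 or more. For *Fgfbp3*, cells with 3 or more UMIs made up 0% (0 of 3249) in the control, which allows a share of up to 0.0923%, and 1.18% in the DKO library. *Fgf3* was found more often in cells that also held *Fgf15*: 5.84% [4.81 to 7.02] of control cells with and 2.75% [1.96 to 3.74] of those without *Fgf15* held *Fgf3*, and in the DKO library the shares were 4.60% [3.57 to 5.81] and 1.29% [0.828 to 1.91]. For *Fgf9* the shares with and without *Fgf15* were 25.6% [23.6 to 27.6] and 22.8% [20.6 to 25.1] in the control, with overlapping intervals, and 15.1% [13.2 to 17.0] and 8.92% [7.66 to 10.3] in the DKO library.

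**Figure D3:**
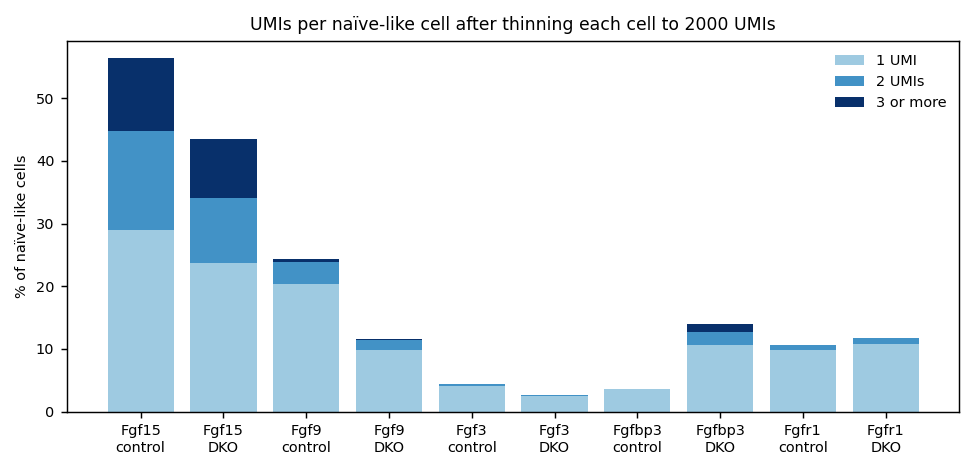
Share of naïve-like cells (percent) with 1, 2, or 3 or more UMIs of 5 genes in each library, after thinning each cell to 2000 UMIs. The bars of *Fgf15*, *Fgf9* and *Fgf3* are shorter in DKO than in control cells, and that of *Fgfbp3* is taller.

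DKO naïve-like cells were then split by *Six3*. DKO cells clustered alone, again without the 9 genes, *Six3* and *Six6*, gave 26 subclusters, and those with *Six3* under 50% of the control naïve-like level were called Six3-low. The control was Six3+/-, whereas DKO cells without deletion carried both floxed alleles, so this limit refers to a heterozygous level. Of the 3344 DKO naïve-like cells, 1583 (47.3%) fell into Six3-low subclusters, where *Six3* stood at 112 CPM against 335 CPM in the other 1761 cells and 309 CPM in the control. *Six6* was low in both, at 39.6 and 50.5 CPM against 366 CPM in the control. Which cells lost *Six3* and where they lay in the retina cannot be told apart here, because α-Cre acts in the periphery.

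The low *Fgf9* of DKO naïve-like cells lay mostly in the Six3-low cells. There *Fgf9* stood at 19.7 CPM, a log2 ratio to control of −2.78 [−2.96 to −2.60], against 94.1 CPM and −0.52 [−0.61 to −0.44] in the other DKO cells. *Fgf3* stood at 3.54 CPM in Six3-low cells, a log2 ratio of −2.52 [−2.97 to −2.10], and at 22.6 CPM in the others, where the interval of the ratio, 0.15 [−0.04 to 0.34], held 0. *Fgf8* was read with 1 UMI in Six3-low cells, a log2 ratio of −5.08 [−10.40 to −2.56], and with 83 UMIs and 5.40 CPM in the other DKO cells, a log2 ratio of 1.15 [0.69 to 1.61]. *Fgf15* stood at 308 CPM in Six3-low cells (−0.63 [−0.68 to −0.58]) and 455 CPM in the others (−0.06 [−0.10 to −0.02]). These 4 ligand genes were thus each lower in Six3-low than in the other DKO cells. For *Fgf15* this order depended on the subcluster with the most *Six3*. Without it, *Fgf15* stood at 297 CPM in the other DKO cells (−0.68 [−0.74 to −0.62]). *Fgf13* was at 47.5 and 48.1 CPM, and both of its intervals held 0.

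*Fgfr3* and *Fgfbp3* were higher in Six3-low cells. *Fgfr3* stood at 12.7 CPM there, a log2 ratio of 2.22 [1.85 to 2.61], and at 4.03 CPM in the others (0.57 [0.08 to 1.06]). *Fgfbp3* stood at 130 CPM in Six3-low cells (2.87 [2.74 to 3.01]) and at 45.3 CPM in the others (1.36 [1.20 to 1.52]), so it exceeded the control in both. *Fgfr1* stood at 73.0 CPM in Six3-low cells (0.24 [0.13 to 0.35]) and 55.2 CPM in the others (−0.16 [−0.28 to −0.05]), on opposite sides of the control level. *Fgfr2* stood at 17.1 and 13.4 CPM, log2 ratios of 1.55 [1.27 to 1.83] and 1.20 [0.91 to 1.49].

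Past 2-fold of the control in Six3-low cells were 3 of 8 measured genes in the higher direction (*Fgfbp3*, *Fgfr3* and *Fgfr2*), against 2.78% of all genes, and 2 in the lower (*Fgf9* and *Fgf3*), against 3.02%. *Fgf8* had under 100 UMIs in that comparison. In the other DKO cells 3 of 9 were higher (*Fgfbp3*, *Fgfr2* and *Fgf8*), against 1.61% of all genes, and 0 were lower, against 0.517%. The summed level of the naïve marker list was 4780 CPM in the control, 2038 CPM in Six3-low and 4543 CPM in the other DKO cells. The ciliary margin markers stood at 374, 505 and 634 CPM and 9 pigment epithelium markers at 17.6, 42.3 and 139 CPM. The part of these marker differences in the results was not tested.

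Across the 6 subclusters with at least 50 naïve-like cells, *Fgf9* was ordered like *Six3*. In order of rising *Six3* (98.6, 109, 132, 178, 340 and 509 CPM), *Fgf9* stood at 8.79, 18.0, 35.5, 41.7, 120 and 136 CPM. *Fgfbp3* stood at 197, 114, 87.2, 26.5, 72.9 and 44.9 CPM in the same order. *Fgf15* stood at 216, 353, 317, 169, 508 and 744 CPM, and *Fgf3* at 1.65, 3.21, 6.31, 3.36, 29.5 and 39.7 CPM. The 2 subclusters with the most *Six3* thus had more *Fgf15* and *Fgf3* than the control and *Fgf9* near its 135 CPM, and the first 4 had less of all 3 ligands. The third subcluster lay just inside the Six3-low limit, with *Six3* over all of its cells at 42.8% of the control, and the fourth just outside, at 58.8%.

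*Fgfr2* followed another order. It stood at 20.9, 15.9 and 15.3 CPM in the 3 Six3-low subclusters, at 28.7 CPM in the fourth, and at 2.95 and 3.31 CPM in the last 2, below the 5.84 CPM of the control. The fourth subcluster (473 naïve-like cells) also had the highest ciliary margin markers (1161 CPM) and pigment markers (334 CPM) of the 6. Without it, the log2 ratio of *Fgfr2* in the DKO cells that were not Six3-low turned from 1.20 to −0.65 [−1.22 to −0.13], that of *Fgf9* moved from −0.52 to −0.09 and that of *Fgf15* from −0.06 to 0.42, and 2 genes were past 2-fold in place of 3. Leaving out the subcluster with the most *Six3* instead moved *Fgf9* to −0.93, *Fgf15* to −0.68 and *Fgf3* from 0.15 to −0.62 [−0.91 to −0.35], and *Fgf8* (0.65) was no longer past 2-fold. The ratios of these cells thus depended on which subclusters were counted. Over all DKO naïve-like cells, leaving out any 1 of the 6 subclusters left 3 to 5 genes past 2-fold, with log2 ratios of −1.71 to −0.92 for *Fgf9* and 0.997 to 1.61 for *Fgfr2*, lowest without the fourth. *Fgfr3* was at 16.2, 11.5 and 11.1 CPM in the Six3-low subclusters and at 3.70 to 4.41 CPM in the others.

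**Figure D4:**
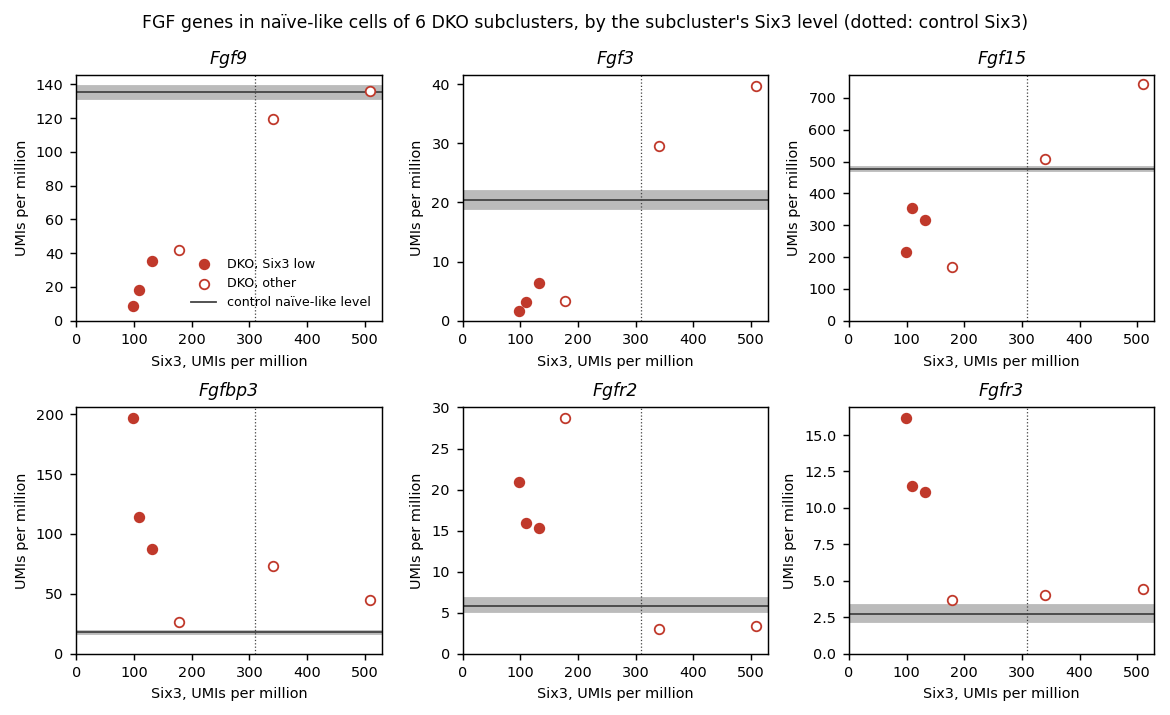
Level (CPM) of 6 genes in the naïve-like cells of 6 DKO subclusters against the level of *Six3* in the same cells; filled points are Six3-low subclusters, open points the others, the horizontal line with its band is the control level with its 95% counting interval, and the dotted line is the control level of *Six3*. *Fgf9* and *Fgf3* are low at low *Six3*, *Fgfbp3* and *Fgfr3* are high there, and *Fgfr2* is highest in the fourth subcluster.

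By cell cycle phase, assigned from phase genes, the ratios of *Fgf9*, *Fgf15*, *Fgfr2* and *Fgfbp3* had the same direction in every phase. *Fgf9* stood at 200 CPM in control and 23.2 CPM in DKO naïve-like cells assigned to G1 (log2 −3.11), at 150 and 76.8 CPM in S (−0.96), and at 119 and 55.1 CPM in G2/M (−1.11). *Fgfbp3* stood at 33.8 and 187 CPM in G1 (2.47), 20.6 and 86.1 CPM in S (2.06) and 14.2 and 72.8 CPM in G2/M (2.36). *Fgfr2* stood at 2.71 CPM (6 UMIs) and 22.8 CPM in G1, a log2 ratio of 3.07 [1.85 to 4.59], and its log2 ratios were 1.15 in S and 1.24 in G2/M. *Fgf15* stood at 462 and 213 CPM in G1 (−1.12), with log2 ratios of −0.23 in S and −0.25 in G2/M. Of the 372 DKO naïve-like cells in G1, all but 81 belonged to the subcluster with the lowest *Six3*. Without that subcluster, the G1 log2 ratios were −1.48 [−2.02 to −0.97] for *Fgf9*, 1.46 [0.89 to 2.02] for *Fgfbp3*, −0.49 [−0.74 to −0.24] for *Fgf15* and 2.45 [0.66 to 4.30] for *Fgfr2* (7 UMIs).

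**Figure D5:**
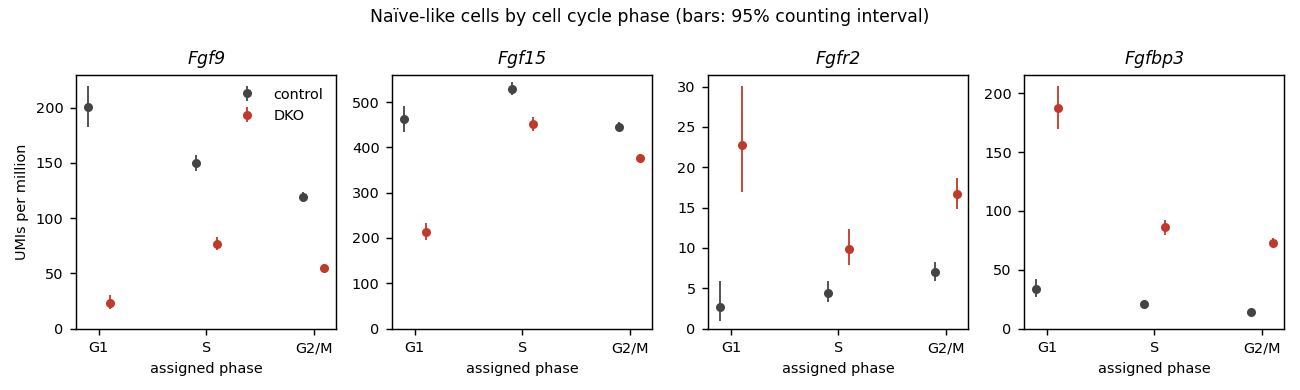
Level (CPM) of 4 genes in naïve-like cells by assigned cell cycle phase in the control (grey) and DKO (red) library, with 95% counting intervals. *Fgf9* is lower and *Fgfr2* and *Fgfbp3* are higher in DKO cells in all 3 phases, with the widest gaps in G1.

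In cluster 2, the cells with margin and pigment markers, the log2 ratios of *Fgf9*, *Fgf15* and *Fgf3* were larger in size than in naïve-like cells. *Fgf9* stood at 95.1 CPM in the control and 33.7 CPM in the DKO library, a log2 ratio of −1.50 [−1.68 to −1.31]. *Fgf15* stood at 184 and 77.5 CPM (−1.25 [−1.37 to −1.12]), and *Fgf3* at 39 and 7 UMIs (−2.55 [−3.95 to −1.37]). *Fgf8* had 11 and 13 UMIs, with an interval that held 0 (0.17 [−1.10 to 1.47]). *Fgfr2* and *Fgfbp3* were higher, at 25.3 and 49.2 CPM (0.96 [0.73 to 1.19]) and at 19.5 and 37.9 CPM (0.96 [0.70 to 1.23]). *Fgfr1* stood at 71.5 and 81.0 CPM (0.18 [0.03 to 0.33]) and *Fgf13* at 34.8 and 40.2 CPM (0.21 [−0.01 to 0.43]). Past 2-fold were 2 of 6 measured genes in the lower direction (*Fgf9* and *Fgf15*), against 0.811% of all genes, and 0 in the higher, against 2.45%. Where the libraries were clustered without integration, the matching cells were fewer in the control and numbered 1740 in the DKO library. There *Fgf15* (0.33), *Fgfr2* (−0.15) and *Fgfr1* (−0.0082) turned direction, *Fgf3* was at −0.18 and *Fgfbp3* at 2.30, and *Fgf9* was at −1.36. In cluster 2 of the integrated clustering, the summed naïve markers stood at 3166 CPM in the control and 1648 CPM in the DKO library, and the pigment markers at 541 and 1453 CPM. Only 226 of the 1167 DKO cells of this cluster (19.4%) lay in Six3-low subclusters. In these, *Fgf15* stood at 140 CPM, against 64.7 CPM in the other DKO cells, an order opposite to that in naïve-like cells. *Fgfr2* stood at 21.9 CPM in the Six3-low and 54.7 CPM in the other DKO cells of this cluster, so its excess over the control (25.3 CPM) came from cells that were not Six3-low. The Six3-low limit was set on the naïve-like control level. *Six3* itself was lower in these other DKO cells than in control cells of this cluster, at 161 against 234 CPM (−0.54 [−0.64 to −0.44]).

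Neurogenic progenitor-like and ganglion cell-like cells, of which 48 and 12 DKO cells lay in Six3-low subclusters, had an *Fgf9* ratio smaller in size than that of naïve-like cells. In neurogenic progenitor-like cells *Fgf9* stood at 71.3 and 41.6 CPM (−0.78 [−0.96 to −0.59]) and *Fgfbp3* at 5.60 and 14.2 CPM (1.34 [0.88 to 1.82]). *Fgfr3* stood at 2.09 and 4.70 CPM on 22 and 41 UMIs (1.17 [0.39 to 1.99]), and *Fgfr1* at 35.0 and 28.9 CPM (−0.28 [−0.52 to −0.04]). *Fgf15* stood at 85.7 and 83.8 CPM (−0.03 [−0.18 to 0.11]), a sum of cluster 4, with 43.6 and 27.6 CPM (−0.66 [−0.98 to −0.35]), and cluster 7, with 121 and 168 CPM (0.48 [0.31 to 0.64]). The direction for *Fgf15* was thus opposite in the 2 clusters of this class. Past 2-fold was 1 of 5 measured genes (*Fgfbp3*), in the higher direction, against 1.87% of all genes, and 0 in the lower, against 0.866%.

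In ganglion cell-like cells *Fgf9* stood at 45.6 and 35.0 CPM (−0.38 [−0.56 to −0.20]; in cluster 6, 0.31 [−0.04 to 0.67]), *Fgfr1* at 24.7 and 18.6 CPM (−0.41 [−0.66 to −0.16]) and *Fgf13* at 20.3 and 27.3 CPM (0.43 [0.18 to 0.67]). *Fgfbp3* stood at 5.16 and 12.2 CPM (1.24 [0.79 to 1.72]) and was the 1 gene of 5 past 2-fold, against 2.86% of all genes higher and 0.799% lower. Of these UMIs of *Fgfbp3*, 21 of 50 in the control and 117 of 211 in the DKO library came from cluster 16, of whose 82 control and 235 DKO cells 88.3% were called doublets. With doublets left out, the log2 ratio of *Fgfbp3* was 0.94, under 2-fold, and in cluster 6 alone it was 0.36 [−0.46 to 1.25]. *Fgf15* stood at 28.5 and 37.2 CPM (0.38 [0.18 to 0.59]). Its level was highest in cluster 16, at 167 and 192 CPM (0.20 [−0.02 to 0.43]). In cluster 6 it stood at 7.99 and 2.34 CPM (−1.77 [−2.72 to −0.87]), and its ratio in cluster 5 was 0.27 [−0.56 to 1.12]. No cluster of this class alone thus had an *Fgf15* interval above 0. Cluster 10, which held 912 DKO cells and 1 control cell and was led by *Rspo3*, *Eomes*, *Lhx9* and *Tbr1*, had 13.2 CPM of *Fgf9*, 7.76 CPM of *Fgf15*, 30.8 CPM of *Fgf13*, 24.4 CPM of *Fgfr1* and 13.2 CPM of *Fgfbp3*.

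No lens-like DKO cell lay in a Six3-low subcluster. *Fgfr1* stood there at 70.4 and 62.0 CPM (−0.18 [−0.45 to 0.08]), *Fgfr3* at 28.4 and 27.7 CPM (−0.04 [−0.45 to 0.37]) and *Fgfr2* at 75.3 and 90.7 CPM (0.27 [0.03 to 0.50]). *Fgfbp3* was higher also here, at 27.7 and 49.8 CPM (0.85 [0.49 to 1.21]), and *Fgf15* lower, at 20.4 and 9.35 CPM (−1.13 [−1.78 to −0.51]). Both *Fgf15* levels lay below those of macrophage-like cells, and the part of free RNA in them was not tested. The summed level of the 8 lens markers was 87273 CPM in the control and 41946 CPM in the DKO lens-like cells. The part of this difference in the ratios was not tested. Over all clusters with at least 50 cells in each library, the interval of *Fgf9* lay below 0 in 10 of 18 and above 0 in none, and that of *Fgfbp3* lay above 0 in 10 of 18 and below 0 in none. All these clusters share the same libraries. The 10 for *Fgf9* include clusters 3 and 12, with low RNA content, and cluster 16, mostly called doublets. The 10 for *Fgfbp3* include clusters 3 and 16.

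Other genes of the pathway came from lists chosen with earlier results of these data known, and their counts in naïve-like cells stand beside 2.43% of all genes higher and 0.938% lower. Of 17 other FGF ligand genes, 2 were measured (at least 100 UMIs in both libraries together) and neither was past 2-fold. Of 12 other receptors, coreceptors and carrier proteins, 7 were measured and 1 was lower past 2-fold. It was *Flrt1*, which encodes a membrane protein that binds FGF receptors, at 24.9 and 11.9 CPM (−1.07 [−1.25 to −0.89]). None of 19 measured genes for heparan sulfate (log2 −0.39 to 0.69), 22 signal transducers (−0.55 to 0.41), 11 feedback inhibitors (−0.45 to 0.38) and 8 ERK-responsive targets (−0.63 to 0.05) was past 2-fold. Their median log2 ratios were 0.06, −0.01, −0.14 and −0.32, beside 0.02 over all genes.

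In Six3-low naïve-like cells, 4 of the 8 ERK-responsive targets were lower than the control past 2-fold, against 3.02% of all genes, and their median log2 ratio was −0.68. *Egr1*, an immediate early transcription factor gene, stood at 206 CPM in the control and 72.3 CPM in Six3-low cells (−1.51 [−1.61 to −1.41]). The immediate early genes *Fos* (−1.45 [−1.52 to −1.38]) and *Ier2* (−1.02 [−1.09 to −0.95]) and the cyclin gene *Ccnd1* (−1.40 [−1.44 to −1.36]), which is also one of the naïve markers, were the others. The remaining targets were not past 2-fold, with log2 ratios of −0.34 for *Etv4*, −0.28 for *Etv5*, −0.15 for *Myc* and −0.06 for *Etv1*. *Flrt1* stood at 6.15 CPM (−2.01), *Flrt2* at 41.9 CPM (−1.24) and *Fgf14* at 2.17 CPM (−1.20). None of the 11 feedback inhibitors was past 2-fold. Their log2 ratios ran from −0.83 to 0.06, with a median of −0.14. The lowest were those of *Spry2* (−0.83) and *Dusp6* (−0.72), which encodes an ERK phosphatase. In the DKO cells that were not Six3-low, none of the ERK-responsive targets and none of the feedback inhibitors was past 2-fold, and *Ccnd1* had a log2 ratio of 0.70.

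The genes distributed most like *Fgf15* and *Fgf9* over 18 clusters of control cells were found by Pearson's r of log2(CPM + 10) among 5904 genes. These clusters share 1 library, and r is given as a description. For *Fgf15* they were *Plagl1* (0.97), *Ildr2* (0.97), *Nedd9* (0.96), *Sorcs1* (0.96) and *Zfp36l1* (0.96), and of the other 8 genes described here *Fgf3* came closest (0.89). In naïve-like cells 4 of these 5 were lower in the DKO library, with log2 ratios from −0.77 to −0.35, and *Ildr2* was higher (0.35). For *Fgf9* they were *Foxd1* (0.96), *Arntl* (0.95), *Nr2f1* (0.94), *Peg12* (0.94) and *Cdh11* (0.93), with *Fgf13* closest among the 9 (0.90). The naïve-like log2 ratios of these 5 ran from −0.81 for *Arntl* to 0.29 for *Peg12*, all smaller in size than the −1.20 of *Fgf9*.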

How the data were processed

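Eyecups of 1 control and 1 DKO embryo were profiled. The authors mapped reads to mm10 with Cell Ranger 3.1.0 and deposited UMI counts per gene and cell, as whole numbers without normalization (10315 control and 12672 DKO barcodes, 85589515 and 85173276 UMIs). The filter on cells asked for over 200 detected genes, under 6000, and a mitochondrial share below 20%. Seurat 5.3.0 in R 4.3.3 integrated the libraries (2000 variable genes at most, 20 dimensions), and clusters were taken at a resolution of 0.5. The 9 genes, the pathway lists and genes named by the study (163 in all) were left out of the features. A class name needed 3 detected markers, 75% of its markers above their level in other cells, no lead by another class's markers and a sufficient UMI depth. This naming rule was settled after the clusters had been seen, and the members, markers and lists were chosen with earlier results of these data known. Doublets were scored with Scrublet (scanpy 1.11.5, threshold 0.225; 300 and 329 cells) and kept. Phases came from Seurat's gene lists on cells thinned to 2000 UMIs. Intervals are exact Poisson for levels, exact binomial for shares, and for ratios come from how a gene's UMIs divide between the libraries (exact binomial) (Python 3.11.15, scipy 1.17.1, numpy 2.4.6, pandas 2.3.3, matplotlib 3.10.9). Since each genotype had 1 library, no p-value was computed. The scripts were tested on simulated data. Genes named beside the 9 are those past 2-fold in their list in naïve-like or Six3-low cells, and the 5 distributed most like *Fgf15* or *Fgf9*. *Spry2*, *Dusp6*, *Etv1*, *Etv4*, *Etv5* and *Myc* were added after their values were seen. Alternatives were all genes as features, resolutions 0.3 and 1, no integration, doublets left out, at least 1000 genes, equal weight per cell, other totals, edgeR 4.0.16 TMM factors, thinning, a pseudocount of 10 CPM and subsets by *Six3*. Added after seeing the data were another linear algebra kernel, the low-RNA cluster 3 or cluster 2 joined to naïve-like cells, and leaving out single DKO subclusters.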

Additional observations from a re-analysis of the deposited data

Results flagged for a closer look

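For 2 of the 9 genes, the intervals of the ratio of DKO to control lay on opposite sides of 0 in different groups of cells. *Fgf15* had a log2 ratio of 0.38 in ganglion cell-like cells, where most of its UMIs came from cluster 16 (88.3% called doublets). No cluster of this class alone had an interval above 0. The ratios were 0.27 [−0.56 to 1.12] in cluster 5, −1.77 [−2.72 to −0.87] in cluster 6 and 0.20 [−0.02 to 0.43] in cluster 16. The *Fgf15* ratio was −0.30 in naïve-like cells, −0.91 in amacrine or horizontal cell-like cells, −1.13 in lens-like cells and −1.25 in cluster 2. *Fgfr1* had a log2 ratio of 0.18 in cluster 2, and ratios of −0.28 in neurogenic progenitor-like and −0.41 in ganglion cell-like cells. With 1 library per genotype the difference between these groups was not tested.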

How the results depend on the processing

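No paired analysis was possible because control and DKO were 1 library each, and no replicate could be left out. In naïve-like cells, the log2 ratio of *Fgf9* kept its direction under all 16 alternatives. It left the counting interval of −1.20 with all genes as features (−1.09), resolutions 0.3 (−1.10) and 1 (−1.01), no integration (−0.26), thinning (−1.09), a pseudocount (−1.08), Six3-low DKO cells (−2.78) and the other DKO cells (−0.52). That of *Fgf15* moved from −0.30 to −0.22, −0.27 and −0.19 with all genes and resolutions 0.3 and 1, to −0.26 with equal weight per cell, −0.34 with thinning, −0.63 in Six3-low and −0.064 in the other DKO cells, and −0.42 with cluster 2 added, and it turned to 0.22 without integration. The 4 genes past 2-fold became 2 without integration or with a pseudocount, and the range was 2 to 5. Without integration, the naïve-like class held 3871 control but 1783 DKO cells. Without integration *Fgf3* in naïve-like cells (0.49), *Fgf15* in cluster 2 (0.33) and in ganglion cell-like cells (−0.029), and *Fgfr1* (−0.0082) and *Fgfr2* (−0.15) in cluster 2 turned direction. With Six3-low DKO cells alone *Fgfr1* (−0.057) and *Fgfr2* (−0.21) in cluster 2 and *Fgfr1* in ganglion cell-like (0.20) and neurogenic progenitor-like cells (0.21) did, and *Fgf3* in naïve-like cells did in the other DKO cells (0.15). The ganglion cell-like and neurogenic progenitor-like values rested on 12 and 48 DKO cells. The interval of the latter, on 17 DKO UMIs, held 0 [−0.59 to 0.91]. The cause was not tested. Of 484 values of the 34 other ratios under alternatives, 449 kept their direction. *Fgf8* had at most 13 UMIs per library in any group other than naïve-like cells, and no difference was detectable in these whole groups at this depth. In cluster 7, a part of the neurogenic progenitor-like cells, its interval lay above 0 on 2 and 7 UMIs (2.53 [0.13 to 5.83]).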

Other observations

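Clusters with low RNA content that had no class name also held ligand UMIs. Cluster 3 (median 996 UMIs per cell), in which 87.5% of the naïve markers were above their level in other cells, had 81.3 CPM of *Fgf9* in the control and 32.6 CPM in the DKO library (log2 −1.32 [−1.84 to −0.82]), and 15 and 55 UMIs of *Fgfbp3* (1.79 [0.95 to 2.72]). *Fgf15* stood there at 104 CPM in both libraries. Cluster 12, led by hemoglobin genes, had 141 and 41.2 CPM of *Fgf15* and 63.0 and 12.3 CPM of *Fgf9*, and 35.4% of its control and 9.27% of its DKO cells were called doublets. Cluster 14, led by crystallin genes, had 23.5 CPM of *Fgf15* in the control and 98.0 CPM in the DKO library, on 15 and 43 UMIs. Macrophage-like cells had 36.5 and 26.6 CPM of *Fgf15*, on 11 and 19 UMIs, and 3.32 and 21.0 CPM of *Fgfbp3*, on 1 and 15 UMIs.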
